A study of Homo sapiens with 4 samples.

Results

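The mRNAs of the SLC25 family, the carriers that move metabolites across the mitochondrial inner membrane, were compared between RNA pulled down with the protein P5CS and the starting RNA. Members were the rows of the deposited gene table whose symbol is SLC25A followed by a number, which gave 43 genes of 21372 in the table. The cells were NCI-H1299, an established human lung cancer cell line, grown in serum-containing medium with no genetic change or treatment named in the labels. RNA immunoprecipitation sequencing (RIP-seq) sequences the RNA recovered with an antibody against a protein. There were 2 libraries of P5CS immunoprecipitate (P5CS IP) and 2 libraries of input RNA from the same line, and no mock or IgG pull-down was analysed here. P5CS (gene ALDH18A1) turns glutamate into the precursor of proline in the mitochondrial matrix, and the samples were made to find RNAs that come down with it. "Higher" below means a greater scaled count in IP than in input RNA, and binding to P5CS cannot be told apart from other differences between a pull-down and total RNA.

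SLC25 carriers are encoded in the nucleus, made on cytosolic ribosomes and inserted into the inner membrane. Each is built of repeated pairs of membrane helices and exchanges or imports a narrow set of solutes, such as ADP for ATP, phosphate, citrate, aspartate, ornithine, cofactors or iron. The family thereby links cytosolic amino acid and energy metabolism, including the glutamate and ornithine that stand beside the P5CS reaction, with the matrix.

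The libraries held between 31489455 and 46339235 counts, and 3 counts, the floor used here, corresponded to between 0.0716 and 0.0873 CPM. CPM values are counts relative to library size, here scaled by TMM, a method that assumes that most genes do not differ. Epithelial keratin KRT18 (9176 to 22354 counts) and VIM (105859 to 181964 counts) were abundant, while the lung lineage factor NKX2-1 had 0 to 52 counts, the epithelial adhesion gene EPCAM 0 to 8 and the leukocyte marker PTPRC 4 to 8, with 10 to 21 for endothelial PECAM1 and 98 to 170 for fibroblast COL1A1. The lung epithelial genes NAPSA, SFTPB and SFTPC and the cadherin CDH1 were not analysed here. Whether the libraries of a group were separate cultures is not stated in the labels, so the p-values cover only the spread of these libraries, perhaps a technical one.

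The start regions of 6 members are shown. SLC25A29 and SLC25A25 were called higher, and SLC25A5, SLC25A6 and SLC25A11 had the lowest log2 fold changes of the called members. SLC25A4, also called lower but less strongly, is the remaining ADP/ATP exchanger tested. Each line gives the 60 bases before the annotated start in lower case and the first 10 transcribed bases in capitals, 5′ to 3′ on the gene's strand, from RefSeq (GRCh38.p14).
SLC25A29, chr14:100306435-100306504, minus strand: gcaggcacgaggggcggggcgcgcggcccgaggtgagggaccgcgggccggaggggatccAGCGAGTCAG
SLC25A25, chr9:128098447-128098516, plus strand: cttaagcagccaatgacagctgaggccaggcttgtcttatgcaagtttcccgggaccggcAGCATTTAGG
SLC25A5, chrX:119468384-119468453, plus strand: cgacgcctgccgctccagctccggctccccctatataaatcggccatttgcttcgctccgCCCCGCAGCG
SLC25A6, chrX:1392104-1392173, minus strand: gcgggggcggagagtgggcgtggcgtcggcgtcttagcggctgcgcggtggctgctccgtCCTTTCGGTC
SLC25A11, chr17:4940037-4940106, minus strand: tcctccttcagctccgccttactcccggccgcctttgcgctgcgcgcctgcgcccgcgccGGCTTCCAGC
SLC25A4, chr4:185143206-185143275, plus strand: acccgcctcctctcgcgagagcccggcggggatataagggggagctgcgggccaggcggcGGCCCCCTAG

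SLC25A25 has 3 annotated starts, of which the first listed is printed, and SLC25A6 has 2 identical entries, since it lies in the region shared by the X and Y chromosomes. An annotated promoter was matched for 37 of 43 members; SLC25A16, SLC25A30, SLC25A35, SLC25A37 and SLC25A41 were among those with none matched. A start with C followed by 4 bases that are each C or T, the kind of 5′ end known from ribosomal protein mRNAs, was found in 1 of 15 members called lower, SLC25A6, and in 0 of 2 matched members called higher. The same start stood in 7.57% of 3356 promoters of all genes called lower and in 5.19% of 11654 promoters of genes tested. Within windows from 250 bases before the start to 50 after it, searched on both strands, GGGCGG was present in 12 of 15 members called lower against 69.6% of tested genes. CCAAT was present in 8 of 15 against 36.5%, and TATAAA in 1 of 15, SLC25A5, against 5.81%. Promoters of all genes called lower had GGGCGG in 71.7%, CCAAT in 40.3% and TATAAA in 5.51%. Of the 2 matched members called higher, 2 had CCAAT, 1 had GGGCGG and 0 had TATAAA. None of these motifs is contained in another, and a match describes the letters only.

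Most SLC25 mRNAs that passed the test were lower in the P5CS IP, and the few that were higher included the basic amino acid carrier SLC25A29 and the ATP-Mg/phosphate carrier SLC25A25. Of the 43 members, 41 passed the filter on low counts and were tested, and SLC25A21 and SLC25A47 were not. Of the 41 tested, 3 were higher (7.32%, against 25.4% of all 17304 genes tested), 15 were lower (36.6%, against 25.6%) and 23 did not pass. In either direction 18 were called (43.9%, against 51.0%). Calls are edgeR quasi-likelihood tests with p adjusted over all genes by the Benjamini-Hochberg method to under 0.05. The median log2 fold change of the tested members was -0.46, with quartiles of -0.80 and 0.12, beside -0.01 over all genes tested, with quartiles of -0.78 and 0.79. With total-count scaling, which moved the median of all genes to 0.25, 8 members were higher and 12 lower and the members' median was -0.19. The authors' deposited table marked 3 of 43 members (6.98%) as enriched, namely SLC25A29, SLC25A25 and SLC25A41, against 19.0% of all genes.

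**Figure D1:**
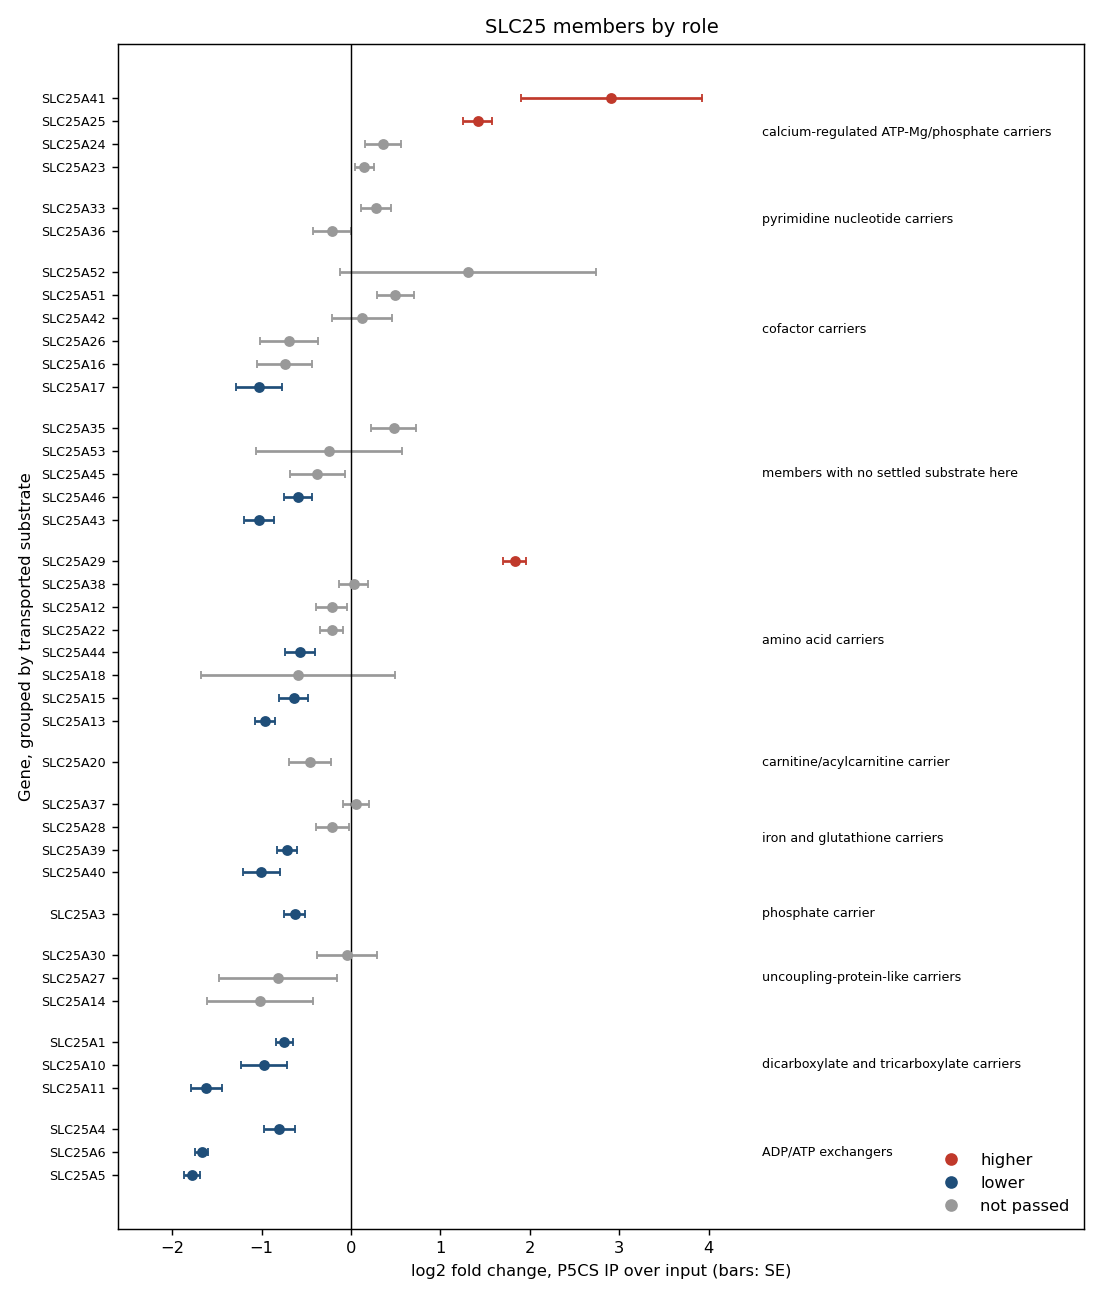
Log2 fold change of P5CS IP over input (x axis) for 40 of the 41 tested members, grouped by what they carry (y axis), with bars of 1 SE from the fit; red points were called higher, blue lower and grey did not pass. The 3 ADP/ATP exchangers and the 3 tested dicarboxylate and tricarboxylate carriers all lie left of 0, and SLC25A41, SLC25A29 and SLC25A25 are the called points on the right.

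The summed level of the family was lower in the IP, mostly through SLC25A3, SLC25A5 and SLC25A6. The CPM values of all 43 members added up to 1167 and 1101 in IP 1 and 2 and to 2092 and 2010 in input 1 and 2, a ratio of means of 1.81 in favour of the input. Without scaling, they took 0.124% ± 0.00598 of all IP counts and 0.187% ± 0.00745 of all input counts (SD, n = 2 each). The other 40 members added up to 571.8 and 574.9 CPM in the IPs and to 650.5 and 661.8 CPM in the inputs, a ratio of means of 1.14. Their share of all counts without scaling was slightly higher in the IP, at 0.0629% ± 0.000214 against 0.0598% ± 3.49e-05 (SD, n = 2 each), so the direction of this remainder depends on the scaling. SLC25A3, SLC25A5 and SLC25A6 held 68.0% ± 1.29 of the family's counts in the input and 49.4% ± 2.26 in the IP. SLC25A29 moved the other way, from 1.19% ± 0.243 of the family's input counts to 7.65% ± 0.709 of its IP counts. Ranked by deposited FPKM (counts divided by gene model length and library total), SLC25A29 was number 6 of the 43 members in the IP and number 17 in the input, and SLC25A25 was number 12 and number 28. Ranks 1 to 5 were held by SLC25A5, SLC25A6, SLC25A3, SLC25A1 and SLC25A39 in that order in both groups.

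**Figure D2:**
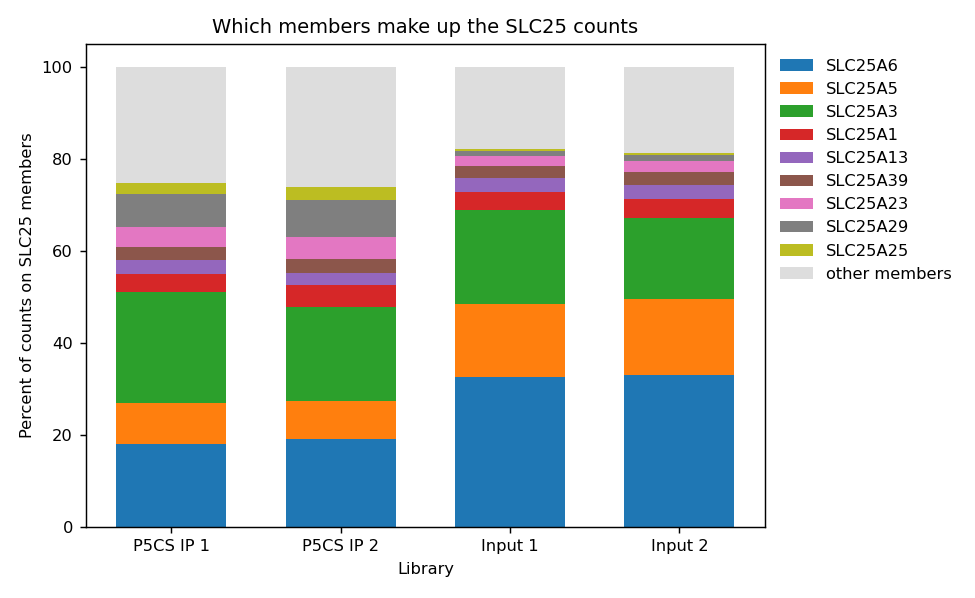
Percent of the counts on SLC25 members (y axis, from 0) held by 9 named members and by the rest together, for each library (x axis). The segment of SLC25A29 is wider in the P5CS IP libraries (7.15% and 8.15%) than in the inputs (1.02% and 1.36%), and those of SLC25A5 and SLC25A6 are narrower.

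The ADP/ATP exchangers, which export matrix ATP for cytosolic ADP, were all lower in the IP, and the pair with the highest FPKM of the family fell most. SLC25A5 (ANT2, the isoform of dividing cells; chromosome X, 119468444 to 119471396) stood at 103 and 89.9 CPM in IP 1 and 2 and at 332 CPM in both inputs. SLC25A6 (ANT3; chromosome X, 1386152 to 1392113) stood at 211 CPM in both IPs and at 680 and 664 CPM in the inputs. SLC25A4 (ANT1, the isoform of heart and muscle; chromosome 4, 185143266 to 185150382) stood at 14.3 and 11.6 CPM against 24.8 and 20.4 CPM. In all 3 genes both IP values lay below both input values. The log2 fold change was -1.78 for SLC25A5 (SE 0.0902, edgeR adjusted p = 6.27e-08), -1.67 for SLC25A6 (SE 0.0732, edgeR adjusted p = 2.42e-08) and -0.80 for SLC25A4 (SE 0.176, edgeR adjusted p = 0.00292). These calls held in all 13 alternative fits, between -1.88 and -1.46, -1.70 and -1.41, and -0.98 and -0.53 for the same genes. Processed copies of SLC25A5 exist, of which SLC25A5P3 had 12 and 18 counts in the IPs and 36 and 50 in the inputs, and how shared reads, or reads of the second SLC25A6 copy on Y, were assigned is not stated in the sources used here.

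The carriers of citric acid cycle intermediates followed the same direction. SLC25A11, the oxoglutarate carrier of the malate-aspartate shuttle (chromosome 17, 4937130 to 4940046), measured 11.0 and 8.97 CPM in the IPs and 27.4 and 33.8 CPM in the inputs. SLC25A1, the citrate carrier that feeds cytosolic lipid synthesis, measured 47.5 and 52.9 CPM against 82.2 and 85.9 CPM. SLC25A10, the dicarboxylate carrier, measured 3.92 and 3.55 CPM against 7.71 and 6.97 CPM. Each had both IP libraries below both inputs, with log2 fold changes of -1.62 for SLC25A11 (SE 0.174, edgeR adjusted p = 1.79e-05), -0.74 for SLC25A1 (SE 0.0998, edgeR adjusted p = 9.25e-05) and -0.97 for SLC25A10 (SE 0.256, edgeR adjusted p = 0.00835). The oxodicarboxylate carrier SLC25A21 was not tested, with 8 and 2 counts in the IPs and 24 and 0 in the inputs. In input 2 the floor of 3 counts was 0.0716 CPM, and 0 counts may allow more, since low counts were mostly even. The phosphate carrier SLC25A3, which supplies phosphate for ATP synthesis, measured 281 and 226 CPM in the IPs and 429 and 353 CPM in the inputs (log2 fold change -0.63, SE 0.118, edgeR adjusted p = 0.00104). The small nucleolar RNA gene SNORA53 lies within SLC25A3 and was also lower (-1.57, SE 0.345).

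**Figure D3:**
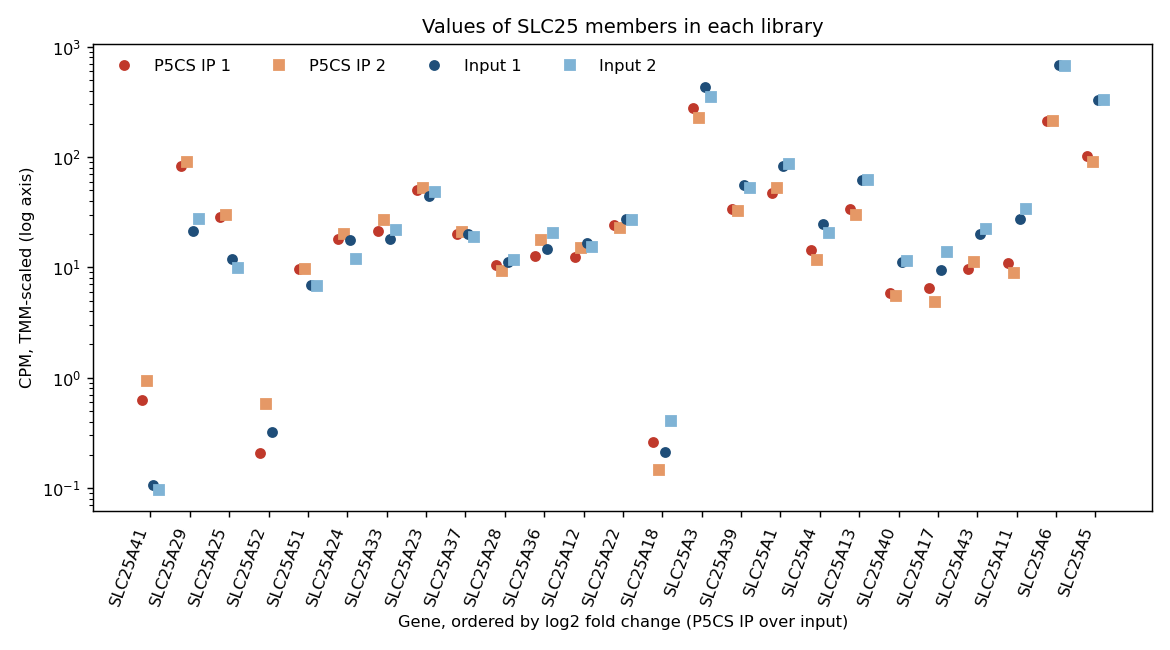
CPM on a log axis (y axis) for 25 members, namely those called most strongly, those of highest FPKM and the paralogue sets (x axis, ordered from the highest to the lowest log2 fold change), with 1 point per library; input 2 has no point for SLC25A52, where it had 0 counts. Red and orange points of the P5CS IP lie above the blue input points at the left end (SLC25A41, SLC25A29, SLC25A25) and below them at the right end (SLC25A11, SLC25A6, SLC25A5).

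Amino acid carriers were the group with members called in both directions. SLC25A29, a carrier of basic amino acids such as arginine and lysine (chromosome 14, 100278567 to 100306444), measured 83.4 and 89.8 CPM in the IPs and 21.3 and 27.4 CPM in the inputs. The IP values were thus all above the input values, by a fitted 3.55-fold (log2 fold change 1.83, SE 0.131, edgeR adjusted p = 7.82e-07), and the log2 value ran from 1.58 to 2.10 over the main and the alternative fits. Its span overlaps that of YY1 on the other strand by 4222 bases, and YY1 had a log2 fold change of 0.13 (SE 0.0918, edgeR adjusted p = 0.284). The strand setting of the counting is not given, so reads of overlapping genes cannot be told apart, and the part of YY1 in the SLC25A29 counts was not tested.

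SLC25A13 (citrin), an aspartate/glutamate carrier of the malate-aspartate shuttle, was lower at 34.0 and 29.7 CPM in the IPs against 62.3 and 62.0 CPM in the inputs. Its log2 fold change was -0.96 (SE 0.112, edgeR adjusted p = 3.19e-05). Its paralogue SLC25A12 (aralar), which carries the same substrates, measured 12.5 and 15.0 CPM against 16.7 and 15.1 CPM and did not pass (-0.21, SE 0.173, edgeR adjusted p = 0.336). The libraries of SLC25A12 lay close together, with IP 2 just below input 2. SLC25A15, the ornithine carrier of the urea cycle whose substrate is also made from the P5CS product, measured 13.4 and 14.3 CPM in the IPs and 23.8 and 19.5 CPM in the inputs (-0.64, SE 0.165, edgeR adjusted p = 0.00725). Its call ended without the first input library (-0.49, edgeR adjusted p = 0.0714) and with total-count scaling (-0.38, edgeR adjusted p = 0.0856). SLC25A44, a carrier of branched-chain amino acids, was lower (-0.57, SE 0.168, edgeR adjusted p = 0.0148). That call ended without the second P5CS IP library (-0.37, edgeR adjusted p = 0.115), without the first input library (-0.44, edgeR adjusted p = 0.0955) and with total-count scaling (-0.31, edgeR adjusted p = 0.166).

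Glutamate and glycine import gave no call. SLC25A22, a glutamate carrier, measured 24.2 and 22.6 CPM in the IPs and 27.4 and 27.1 CPM in the inputs (-0.22, SE 0.131, edgeR adjusted p = 0.197). Its paralogue SLC25A18 was scarce, with 10 and 5 counts against 8 and 17, and did not pass (-0.59, SE 1.09). SLC25A38, which imports glycine for haem synthesis, stood at 0.03 (SE 0.162). The sign of SLC25A22 and that of SLC25A12 turned with total-count scaling, to 0.05 in both.

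The ATP-Mg/phosphate carriers, which adjust the matrix pool of adenine nucleotides, contributed the other members called higher. SLC25A25 (chromosome 9, 128068232 to 128109245) measured 28.5 and 29.7 CPM in the IPs and 11.96 and 9.88 CPM in the inputs. That is 2.67-fold more in the IP (log2 fold change 1.42, SE 0.159, edgeR adjusted p = 2.41e-05), with both IP libraries above both inputs, and the call held in all 13 alternative fits, between 1.19 and 1.68. The antisense gene SLC25A25-AS1 had 76 and 70 counts in the IPs and 55 and 26 in the inputs (0.95, SE 0.566, edgeR adjusted p = 0.19), far below the 1092, 1020, 450 and 414 counts of SLC25A25. SLC25A41 had only 24 and 32 counts in the IPs and 4 and 4 in the inputs (log2 fold change 2.91, SE 1.01, edgeR adjusted p = 0.0333). Its call ended on leaving out any library: edgeR adjusted p = 0.137 without P5CS IP 1 (3.17), 0.304 without P5CS IP 2 (2.63), 0.127 without input 1 (2.98) and 0.144 without input 2 (2.83). It also ended with the replicate block (2.89, edgeR adjusted p = 0.0793), after removal of the length trend under that block (3.15, edgeR adjusted p = 0.059), with limma-voom (2.77, adjusted p = 0.0652) and without the low-count filter (2.91, edgeR adjusted p = 0.0541). SLC25A41 lies end to end with SLC25A23 on chromosome 19, and their spans overlap by 187 bases.

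The remaining ATP-Mg/phosphate carriers had small positive values. SLC25A23 measured 50.4 and 52.9 CPM in the IPs and 44.8 and 48.3 CPM in the inputs (0.15, SE 0.105, edgeR adjusted p = 0.266). SLC25A24 measured 17.9 and 20.0 CPM against 17.7 and 11.9 CPM (0.36, SE 0.201, edgeR adjusted p = 0.167). The spread of SLC25A24 lay in the inputs: without the first input library it was called higher (0.67, edgeR adjusted p = 0.0177). Both genes were called higher with total-count scaling (0.42 and 0.62).

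Among cofactor carriers 1 of 7 was called. SLC25A17, a peroxisomal carrier of coenzyme A and related cofactors, measured 6.53 and 4.89 CPM in the IPs and 9.46 and 13.8 CPM in the inputs (-1.03, SE 0.255, edgeR adjusted p = 0.00594). SLC25A51, the mitochondrial NAD+ carrier, measured 9.64 and 9.66 CPM against 6.91 and 6.80 CPM, with both IPs above both inputs, and did not pass (0.49, SE 0.207, edgeR adjusted p = 0.0695). It was called higher with the length trend removed (0.71, edgeR adjusted p = 0.0151) and with total-count scaling (0.76, edgeR adjusted p = 0.01). Its close copy SLC25A52 had 8 and 20 counts in the IPs and 12 and 0 in the inputs and did not pass, and reads of the pair may be split between them.

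The other cofactor carriers described had no call. In SLC25A42 the libraries of a group differed more than the groups did. SLC25A42, a carrier of coenzyme A, had 329 and 172 counts in the IPs and 169 and 336 in the inputs, so that its highest libraries were IP 1 and input 2 (0.12, SE 0.338). SLC25A16 had 228 and 128 counts in the IPs and 244 and 408 in the inputs and did not pass (-0.74, SE 0.304, edgeR adjusted p = 0.0631). It was called lower without the first P5CS IP (-1.12, edgeR adjusted p = 0.00914), without the first input (-1.01, edgeR adjusted p = 0.0112), on halved counts (-0.74, edgeR adjusted p = 0.0465) and with the length trend removed (-1.06, edgeR adjusted p = 0.0136). SLC25A26, which carries S-adenosylmethionine, stood at -0.69 (SE 0.329) and did not pass. Pyrimidine nucleotide carriers gave no call either: SLC25A33 stood at 0.28 (SE 0.166, edgeR adjusted p = 0.193) with 21.3 and 26.7 CPM in the IPs and 17.9 and 21.6 CPM in the inputs. SLC25A36 stood at -0.21 (SE 0.213, edgeR adjusted p = 0.451) with 12.7 and 17.6 CPM against 14.6 and 20.4 CPM. SLC25A36 changed sign without the first P5CS IP (0.01) and without the second input (0.05), and was called lower with the length trend removed (-0.63, edgeR adjusted p = 0.0298), while SLC25A33 was called higher with total-count scaling (0.54).

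Carriers of glutathione were lower and those of iron were not called. SLC25A39, needed for mitochondrial glutathione import, measured 33.8 and 32.1 CPM in the IPs and 55.6 and 52.7 CPM in the inputs (-0.72, SE 0.108, edgeR adjusted p = 0.000222). SLC25A40, its paralogue, measured 5.83 and 5.47 CPM against 11.3 and 11.4 CPM (-1.001, SE 0.208, edgeR adjusted p = 0.002). Mitoferrin-1, SLC25A37, which brings iron into the matrix, measured 19.9 and 21.0 CPM against 20.2 and 19.0 CPM, with the groups overlapping (0.06, SE 0.145, edgeR adjusted p = 0.771). Mitoferrin-2, SLC25A28, measured 10.4 and 9.29 CPM against 11.2 and 11.6 CPM (-0.21, SE 0.188, edgeR adjusted p = 0.393). The sign of SLC25A37 turned with the length trend removed (-0.14), and that of SLC25A28 with total-count scaling (0.06).

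The other members were called lower or not at all. SLC25A43, an orphan carrier that lies beside SLC25A5 on chromosome X, measured 9.72 and 11.1 CPM in the IPs and 20.0 and 22.5 CPM in the inputs (-1.03, SE 0.168, edgeR adjusted p = 0.000396). SLC25A46, an outer-membrane relative that acts in mitochondrial shape, stood at -0.59 (SE 0.157, edgeR adjusted p = 0.00874). The call of SLC25A46 ended without the second P5CS IP (-0.50, edgeR adjusted p = 0.0523) and with total-count scaling (-0.32, edgeR adjusted p = 0.115). The carnitine/acylcarnitine carrier SLC25A20, which lets fatty acids in for oxidation, stood at -0.46 (SE 0.231, edgeR adjusted p = 0.124). Of the uncoupling-protein-like carriers, SLC25A27 (-0.81, SE 0.658) and SLC25A30 (-0.04, SE 0.334) did not pass. SLC25A14 had 96 and 20 counts in the IPs and 96 and 156 in the inputs (-1.01, SE 0.593, edgeR adjusted p = 0.182), and it was called lower once the first P5CS IP was left out (-2.42, edgeR adjusted p = 0.0015). SLC25A35 (0.48, SE 0.251), SLC25A45 (-0.38, SE 0.305) and SLC25A53 (-0.25, SE 0.816) did not pass, and of these SLC25A35 was called higher with total-count scaling (0.74). SLC25A47 was not tested, with 14 and 4 counts in the IPs and 2 and 4 in the inputs. The spans of SLC25A26 and SLC25A45 overlap genes called higher, namely LRIG1 (1.31) and FRMD8 (1.56), and the part of these genes in the members' counts was not tested.

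Count ratios between paralogues within a library do not depend on scaling, and they separated some pairs by group. SLC25A13 exceeded SLC25A12 by 2.71 and 1.99 times in the IPs and by 3.72 and 4.09 times in the inputs. SLC25A25 stood at 1.59 and 1.49 times SLC25A24 in the IPs and at 0.675 and 0.831 times in the inputs. The order of these paralogues thus differed between IP and input counts, which are not corrected for model length (4951 and 6543 nt). By FPKM, SLC25A25 was below SLC25A24 in input 1 (2.22 against 2.49) and above it in input 2 (1.80 against 1.64). In the IPs its FPKM was above that of SLC25A24 (6.35 and 6.54 against 3.02 and 3.33). The ratio of SLC25A4 to SLC25A5 was 0.139 and 0.129 in the IPs and 0.0748 and 0.0615 in the inputs. By contrast, SLC25A5 stood at 0.489 and 0.426 times SLC25A6 in the IPs and at 0.488 and 0.4995 times in the inputs, and these values met at the first libraries. Ratios of SLC25A39 to SLC25A40 were 5.81 and 5.87 against 4.93 and 4.64, and those of SLC25A36 to SLC25A33 were 0.598 and 0.658 against 0.815 and 0.942. A permutation of 2 against 2 libraries cannot give an exact two-sided p below 0.333, so these ratios are descriptions.

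**Figure D4:**
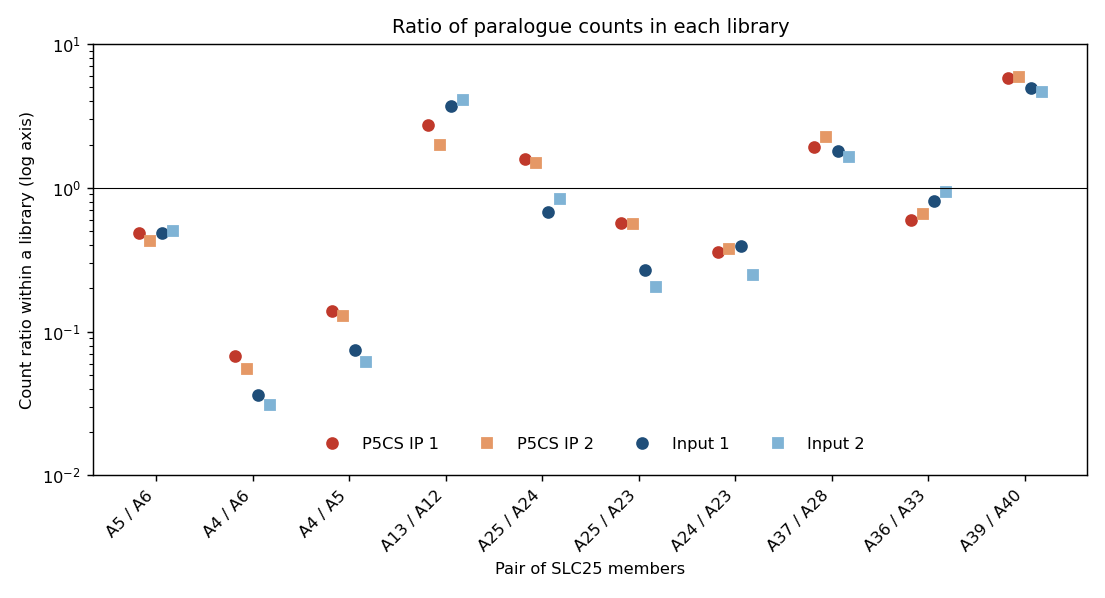
Ratio of the counts of paired members within each library on a log axis (y axis), for 10 pairs (x axis), with 1 point per library and a line at a ratio of 1. SLC25A25 over SLC25A24 lies above the line in the P5CS IPs and below it in the inputs, and SLC25A13 over SLC25A12 is lower in the IPs. Counts are not divided by model length, so a ratio of 1 does not mark equal FPKM.

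Gene model length, recovered from the deposited counts and FPKM, moved only loosely with the members' values. The tested members had a median model length of 3268 nt, and all tested genes 3425 nt. Spearman's correlation of log2 fold change with length was 0.18 across the 41 members and 0.27 across all 17304 tested genes, which share the same libraries and are not independent. Members called lower ran from 1307 nt (SLC25A5) to 6858 nt (SLC25A3), and those called higher had 1535 nt (SLC25A41), 4951 nt (SLC25A25) and 5461 nt (SLC25A29). With the length trend of all genes removed, 4 members were higher and 17 lower: SLC25A51 joined the higher, and SLC25A16 and SLC25A36 the lower.

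**Figure D5:**
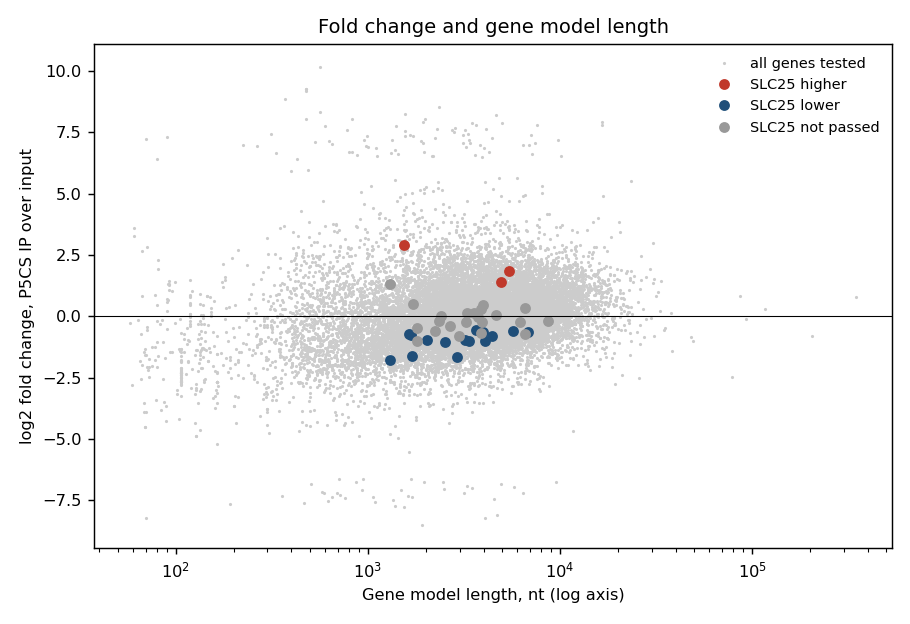
Log2 fold change of P5CS IP over input (y axis) against gene model length on a log axis (x axis) for all tested genes (small grey dots) and 40 of the 41 tested SLC25 members (large points, coloured by call). The members called lower are spread from 1307 to 6858 nt.

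Genes that work beside the carriers were mostly lower as well. Of 40 partner genes, 2 were higher and 31 lower, and 7 had no call. Their median log2 fold change was -0.88, beside -0.01 over all genes tested, of which 25.4% were called higher and 25.6% lower. Of 4 family members under other symbols, the carrier-like import protein MTCH2 was lower (-1.95, SE 0.138), as were its paralogue MTCH1 (-0.68, SE 0.0812) and the uncoupling protein UCP2 (-0.60, SE 0.161). UCP2 had no call without the second P5CS IP (-0.40, edgeR adjusted p = 0.083), with total counts (-0.33) or with the length trend removed (-0.38). UCP3 had 24 and 34 counts in the IPs against 2 and 6 in the inputs (2.98, SE 1.04). Its call ended on leaving out any library, at edgeR adjusted p = 0.113 and 0.302 without P5CS IP 1 and 2 (3.29 and 2.66) and 0.172 and 0.0675 without input 1 and 2 (2.47 and 3.84).

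The machinery that carries SLC25 precursors through the intermembrane space to the inner membrane had 8 of 13 genes lower, and the others had no call. The small chaperone TIMM8B (-2.33, SE 0.202) and the receptor TOMM22 (-1.70, SE 0.126) were lowest. TOMM70, the outer-membrane receptor that recognises carrier precursors, measured 43.4 and 45.6 CPM in the IPs and 41.8 and 44.9 CPM in the inputs and did not pass (0.04, SE 0.108). TIMM29 of the insertion complex did not pass either (-0.25, SE 0.15), and TOMM70 was called higher with total-count scaling (0.30). Among 16 other inner-membrane transporters 13 were lower, led by the pyruvate carrier subunit MPC1 (-2.37, SE 0.428) and SMDT1 of the calcium uniporter (-1.96, SE 0.312). LETM1, an ion exchanger of the inner membrane, was the exception that was higher, at 366 and 428 CPM in the IPs against 218 and 254 CPM in the inputs (0.75, SE 0.101), and ABCB10 did not pass (-0.08, SE 0.193). All 3 outer-membrane pores were lower, VDAC1 at -0.99 (SE 0.117), VDAC2 at -1.15 (SE 0.101) and VDAC3 at -1.39 (SE 0.147). So were all 4 malate-aspartate shuttle enzymes, from MDH1 (-0.73, SE 0.133) and GOT1 (-0.81, SE 0.109) to MDH2 (-0.88, SE 0.0794) and GOT2 (-0.98, SE 0.0988), beside SLC25A11 and SLC25A13 of the same shuttle.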

How the data were processed

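Per the file headers, the authors deposited whole-number counts for each gene and library and FPKM values. The authors' own comparison holds a mean normalised signal, a log2 fold change and its error, a test score, and a p-value before and after adjustment, per the file headers. Tools named in the submitters' processing notes are STAR 2.7.10a, fastp 0.23.2, DESeq2 and featureCounts, with build hg38; their settings, the annotation and the strand are not stated there. The labels call the assay RIP-seq, whereas the design text names LACE-seq and an IgG control. All count columns carry the word Cyto, unexplained in the labels; those with Input were taken as input, the others as P5CS, by replicate number. Of low counts, 85.8 to 86.4% were even, as if each pair gave 2 counts, and floors cover counting error only.

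Of 21373 rows, 1 repeated a symbol with equal values and was dropped. The deposited counts went through edgeR 4.0.16 under R 4.3.3 (TMM scaling, filterByExpr, glmQLFit and glmQLFTest with group as the only term, 2 residual degrees of freedom) on all 17304 genes that passed the filter; p-values were adjusted by Benjamini-Hochberg and called under 0.05. The SE is the absolute log2 fold change over the square root of the F statistic. Model lengths were recovered from counts and FPKM; libraries differed by at most 0.000104 of their median. Alternatives were total-count and upper-quartile scaling, DESeq2 1.42.0, voom of limma 3.58.1, no filter, a replicate block, a removed length trend (loess, span 0.5), halved counts, a stricter threshold and each library left out. The fits were also run on simulated data in which few genes differed and no length trend was present. These data differ from that setting, so the run does not test the scaling or the calls here. Members and lists were chosen with earlier results of these data known. All members but 1, counted but not reported here, are named; values in every library are given for up to 6 called members on either side (3 were higher and the 6 lowest were taken), the 4 of highest FPKM and fixed paralogue sets, and for a few others chosen after their values were seen. Of each partner list, the 2 highest and 2 lowest genes are named. Listed family symbols SLC25A2, SLC25A31, SLC25A32, SLC25A34 and SLC25A48 were not analysed here.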

Additional observations from a re-analysis of the deposited data

How the results depend on the processing

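Of the 18 member calls, 14 held in all 13 alternative fits, and SLC25A15, SLC25A41, SLC25A44 and SLC25A46 lost theirs in some, as given with each gene. With total-count scaling, 8 members were higher and 12 lower, the median was -0.19, and these uncalled genes turned sign: SLC25A12 (0.051), SLC25A22 (0.049), SLC25A28 (0.058), SLC25A30 (0.23), SLC25A36 (0.058), SLC25A53 (0.010), TIMM29 (0.016) and ABCB10 (0.18). Upper-quartile scaling, DESeq2 and halved counts gave 3 members higher and 15 or 16 lower. With limma-voom, without the filter and with the replicate block, 2 were higher and 15 lower, SLC25A41 having lost its call. With the length trend removed, 4 were higher and 17 lower, or 3 and 17 with the block, and in both SLC25A37 (-0.14), TOMM70 (-0.117) and TIMM29 (0.058 with the block and 0.060 without) turned sign. Leaving out 1 library gave 2 to 3 higher, 13 to 17 lower and a median of -0.55 to -0.37. It also turned the sign of these uncalled genes, whose values then ran from -0.17 to 0.11 (SLC25A30), -0.43 to 0.052 (SLC25A36), -0.050 to 0.14 (SLC25A38), -0.32 to 0.60 (SLC25A42), -0.70 to 0.41 (SLC25A53), -0.014 to 0.091 (TOMM70) and -0.24 to 0.094 (ABCB10). Partner genes called higher went from 2 to 1 with limma-voom, without the filter, with the replicate block, with the block and the length trend removed, at a threshold of 0.01 and without any 1 library (1 to 1), as UCP3 lost its call.

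Over all genes, the deviations of same-numbered libraries were not correlated (0.000153, 2 pairs). With so few libraries this value cannot decide whether same-numbered libraries were prepared together, which the labels do not state. The replicate block gave 4449 genes higher and 4487 lower against 4400 and 4432 without it. SLC25A18, SLC25A21, SLC25A41, SLC25A47 and SLC25A52 had at most 32 counts in any library, so smaller differences in them were not detectable at this depth.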
